A study of Rattus norvegicus with 9 samples.

Results

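The cell cycle genes described here were the genes whose deposited pathway annotation lists the KEGG cell cycle pathway of the rat. The annotation held 159 such genes, and Gsk3b, Tgfb1 and Tgfb3 were left out by the rule that chose the genes. This left 156 of the 23026 genes in the table, of which 151 passed the filter on low counts and were tested among 16874 genes. The study sequenced mRNA from the bone of female Sprague–Dawley rats that were 8 weeks old when purchased, with 3 libraries, stated to be biological replicates, in each of 3 groups. Sham rats had the ovaries exposed and fat removed and received the vehicle sodium carboxymethyl cellulose (CMC-Na), and OVX rats had both ovaries removed and received 1% CMC-Na. OVX-AS-IV-High rats had both ovaries removed and received astragaloside IV (AS-IV), a saponin of Astragalus root, at 80 mg/kg by gavage. Dosing began 6 weeks after surgery and lasted 8 weeks. The labels give 1%, 2% and 3% CMC-Na for Sham-1, Sham-2 and Sham-3, where the methods give a single strength, and the part of this difference in the results was not tested.

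A dividing cell licenses its replication origins in G1, when the origin recognition complex, Cdc6 and Cdt1 load the Mcm helicase, and copies its DNA in S phase after cyclin E and Cdk2 have released E2F from the Rb proteins. Cyclin B and Cdk1 then drive mitosis, the spindle checkpoint holds the anaphase-promoting complex (APC/C) until all chromosomes are attached, and separase cuts the cohesin rings that hold sister chromatids together. In bone, most dividing cells are blood-forming cells of the marrow.

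Total counts per library lay between 34874880 and 37298250. Bone markers were present, with Bglap (osteocalcin of osteoblasts) at a mean of 1220 FPKM and Ctsk (cathepsin K of osteoclasts) at 599 FPKM, and the erythroid gene Hba-a1 was at 59400 FPKM. The libraries differed in skeletal muscle transcripts. Over the 23 of 24 listed muscle genes found in the table, led by Acta1 with a mean of 667 FPKM, the summed level was 15700, 12100 and 2650 CPM in Sham-1, Sham-2 and Sham-3, 5870, 3090 and 2650 CPM in OVX-1, OVX-2 and OVX-3, and 8410, 3500 and 998 CPM in OVX-AS-IV-High-1, OVX-AS-IV-High-2 and OVX-AS-IV-High-3. Sham-1, Sham-2 and OVX-AS-IV-High-1 were the 3 highest libraries and OVX-1 the next, with no clear break between them. All 23 muscle genes had a negative log2FC against Sham, both for OVX and for OVX-AS-IV-High (medians -1.49 and -1.19, median standard errors 0.772 and 0.774), and 17 had a positive log2FC in OVX-AS-IV-High against OVX (median 0.12), although 0 of the 23 had an unadjusted p under 0.05 by edgeR in any comparison. The counts below are also given without the 3 highest libraries, called muscle-rich here, an alternative chosen after seeing the data. For comparisons with Sham this leaves 1 Sham library, Sham-3, which had the largest share of cell cycle counts, and its spread is assumed to be that of the other groups. Values from that fit are given as against Sham-3 alone. It also leaves out OVX-AS-IV-High-1, so 2 libraries of OVX-AS-IV-High remain. In these values muscle RNA and the choice of Sham library, and of treated libraries where they are compared, cannot be told apart. Counts over all cell cycle genes are also given with the muscle score as a covariate, with the genes whose call the covariate ended. Apart from these values the part of muscle RNA was not tested. In bulk bone, fewer dividing cells and less of a transcript per cell cannot be told apart.

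Marker lists of other cells held genes with an unadjusted p under 0.05 between groups. Among all genes tested, 8.16% were higher and 8.28% lower in OVX than in Sham by this threshold. Treated rats had 9.17% higher and 8.48% lower than Sham, and 4.42% higher and 2.03% lower than untreated OVX rats. Adipocyte genes, led by Fabp4, summed to 402, 427 and 467 CPM in Sham, 622, 827 and 769 CPM in OVX, and 596, 820 and 827 CPM in OVX-AS-IV-High, and 7 of 9 were higher in OVX and 6 of 9 in OVX-AS-IV-High than in Sham. Every Sham library lay below all others in this sum. Endothelial genes, led by Pecam1, summed to 381, 389 and 336 CPM in Sham, 354, 370 and 291 CPM in OVX, and 288, 296 and 290 CPM in OVX-AS-IV-High, with 2 of 8 lower in OVX and 5 of 8 lower in OVX-AS-IV-High than in Sham, and 1 of 8 lower after AS-IV than in OVX. In that last comparison all 8 had a negative log2FC (median -0.14). B progenitor genes, led by Cd79a, summed to 873, 855 and 1220 CPM in Sham, 1480, 1620 and 1560 CPM in OVX, and 1070, 1300 and 1580 CPM in OVX-AS-IV-High, with 10 of 13 higher in OVX, and 3 of 13 after AS-IV, than in Sham, and 3 of 13 lower after AS-IV than in OVX. All OVX libraries lay above all Sham libraries in B progenitor genes. T and NK genes, led by Nkg7, summed to 213, 206 and 270 CPM in Sham, 246, 360 and 296 CPM in OVX, and 257, 266 and 310 CPM in OVX-AS-IV-High, with 3 of 11 higher in OVX (all 11 had a positive log2FC, median 0.82), and 1 of 11 higher after AS-IV, than in Sham. In OVX-AS-IV-High vs. OVX all 11 had a negative log2FC (median -0.34), with 0 under an unadjusted p of 0.05 by edgeR. Neutrophil granule genes, led by S100a8, summed to 18800, 17100 and 13700 CPM in Sham, 17600, 16900 and 22000 CPM in OVX, and 24300, 21000 and 19100 CPM in OVX-AS-IV-High, with 4 of 14 higher in OVX and 7 of 14 in OVX-AS-IV-High than in Sham. Erythroid genes summed to 56500, 64800 and 80900 CPM in Sham, 57200, 47900 and 60500 CPM in OVX, and 62800, 59600 and 71400 CPM in OVX-AS-IV-High, with 4 of 18 lower in OVX, and 1 of 18 higher after AS-IV, than in Sham. All 18 had a positive log2FC in OVX-AS-IV-High vs. OVX (median 0.14), with 0 under an unadjusted p of 0.05 by edgeR. Of erythroid genes 5.56% and of T and NK genes 9.09% were higher after AS-IV than in Sham, against 9.17% of all genes. The lists of chondrocyte, hematopoietic stem and progenitor, macrophage, megakaryocyte, osteoblast and osteoclast genes had at most 1 gene in either direction in any comparison. All 8 chondrocyte genes had a negative log2FC against Sham, both for OVX and for OVX-AS-IV-High. Medians were -0.65 and -0.56, with median standard errors of 0.618 and 0.617. All 7 megakaryocyte genes were negative in OVX-AS-IV-High vs. Sham (median -0.44). Osteoblast genes summed to 5670, 7450 and 15200 CPM in Sham and 11700, 18900 and 17800 CPM in OVX. In OVX-AS-IV-High the sums were 6050, 16100 and 11100 CPM. Sham-3 was thus the highest library in erythroid genes, and Sham-3 was the lowest of all libraries in neutrophil granule genes. The part of these cells in the cell cycle values was not tested.

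The cell cycle genes took 1.30%, 1.39% and 1.60% of the counts of Sham-1 to Sham-3. The share was 1.56%, 1.46% and 1.52% for OVX-1 to OVX-3, and the treated libraries had 1.46%, 1.5% and 1.59% in the same order. Sham-1 was thus the lowest library and Sham-3 the highest, so the spread within Sham covered the other 2 groups. Sham-1 had the lowest level for 72 of the 151 genes, while Sham-3 had the highest for 37 and OVX-AS-IV-High-3 for 34. The most abundant genes of their roles, by mean FPKM, were Ccnd3 (cyclin D3, which activates Cdk4 and Cdk6 in G1) at 262, Ywhaz (a 14-3-3 protein) at 250, Pcna (the sliding clamp of DNA polymerase) at 242, Cdc25b (a phosphatase that activates Cdk1) at 131, Skp1 (a subunit of the SCF ubiquitin ligase) at 110, Cdkn1b (the CDK inhibitor p27) at 107, Rad21 (the cohesin subunit cut by separase) at 96.6, E2f2 at 93.4, Ccna2 (cyclin A2) at 72.2 and Ppp2ca (a catalytic subunit of PP2A) at 64.6.

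The 20 S-phase genes tested had a mean level of 5.97, 6.20 and 6.41 log2 CPM in Sham, 6.29, 6.08 and 6.22 log2 CPM in OVX, and 6.20, 6.22 and 6.30 log2 CPM in OVX-AS-IV-High. All libraries of the other 2 groups lay between Sham-1 and Sham-3. The 25 mitotic genes tested had a mean level of 5.46, 5.78 and 6.0 log2 CPM in Sham, 5.98, 5.77 and 5.97 log2 CPM in OVX, and 5.77, 5.79 and 6.06 log2 CPM in OVX-AS-IV-High. Again Sham-1 was the lowest library, and it was lowest for 18 of the 25 mitotic genes and 11 of the 20 S-phase genes. The 15 cohesin genes tested differed from both, with 6.38, 6.52 and 6.69 log2 CPM in Sham, 6.70, 6.56 and 6.67 log2 CPM in OVX, and 6.76, 6.85 and 6.78 log2 CPM in OVX-AS-IV-High. Every OVX-AS-IV-High library lay above every other library in cohesin level.

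**Figure D1:**
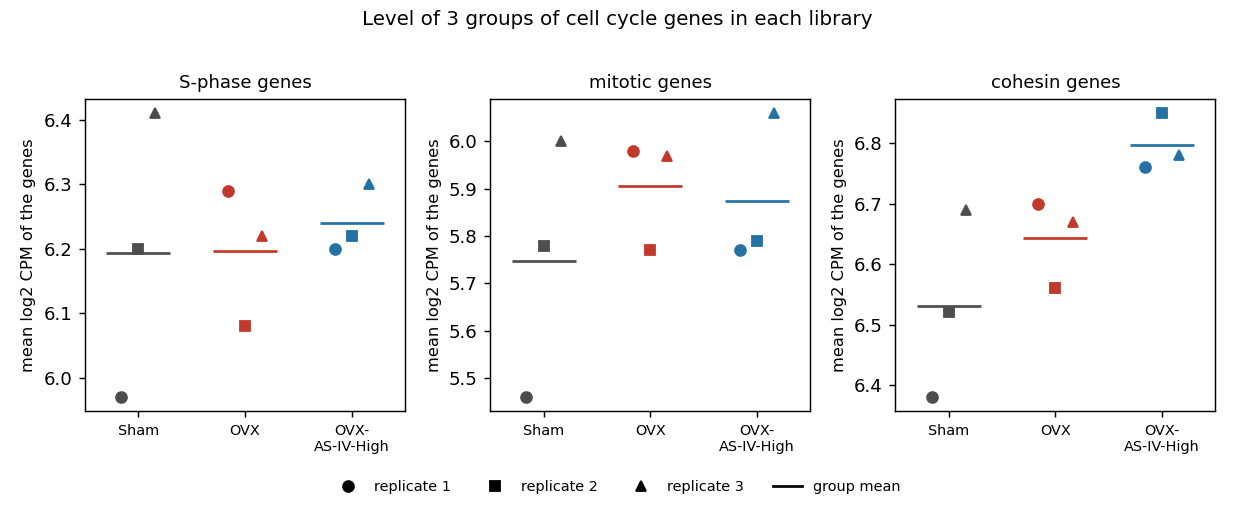
Mean log2 CPM of the S-phase, mitotic and cohesin genes (y axes, each with its own range) in each library of the 3 groups; symbols give the replicate number and lines the group means. Sham-1 is the lowest library in all 3 plots, and the OVX-AS-IV-High libraries lie above all others only for the cohesin genes, at 6.76 to 6.85.

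S-phase and mitotic genes are known to be controlled through different promoter elements, E2F sites for the former and the cell cycle homology region (CHR) for the latter, so the promoters of core genes are shown with these letters. RefSeq promoters of build GRCr8, from 250 bases before to 50 bases after the start, were found for 123 of the 156 genes. On either strand, E2F letters (TTTCCCGC, TTTCGCGC, TTTGCCGC or TTTGGCGC) were found for 8 of 15 S-phase genes (53.3%), 1 of 23 mitotic genes (4.35%) and 2.37% of all 27457 genes with a promoter. Among the 85 cell cycle genes of other roles, the share was 15.3%. CHR letters (TTTGAA or TTCGAA) were found for 4 of 15 S-phase genes (26.7%), 18 of 23 mitotic genes (78.3%), 21.2% of the cell cycle genes of other roles and 21.0% of all genes. CCAAT was found for 46.7% of the S-phase genes, 56.5% of the mitotic genes, 49.4% of the cell cycle genes of other roles and 39.6% of all genes. These matches describe the sequences and do not show that a factor binds there.

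The 120 bases before the start, on the strand of the gene, follow for each core gene with a whole match in that stretch. Capitals mark E2F letters in the Mcm genes, which encode subunits of the replicative helicase, and CHR letters in the mitotic genes, on either strand. The stretches are chr4:122918095-122918214 (minus strand) for Mcm2, chr19:13488693-13488812 (plus strand) for Mcm5, chr12:22163179-22163298 (minus strand) for Mcm7, chr8:79981659-79981778 (minus strand) for Ccnb2, chr5:137255800-137255919 (minus strand) for Cdc20, chr20:19265173-19265292 (plus strand) for Cdk1, chr7:135302596-135302715 (plus strand) for Espl1 and chr10:28406327-28406446 (minus strand) for Pttg1.
Mcm2: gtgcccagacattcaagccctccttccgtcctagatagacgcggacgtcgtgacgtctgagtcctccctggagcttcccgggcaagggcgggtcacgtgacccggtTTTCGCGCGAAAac
Mcm5: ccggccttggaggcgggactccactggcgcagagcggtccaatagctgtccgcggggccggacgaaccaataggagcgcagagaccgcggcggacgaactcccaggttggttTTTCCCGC
Mcm7: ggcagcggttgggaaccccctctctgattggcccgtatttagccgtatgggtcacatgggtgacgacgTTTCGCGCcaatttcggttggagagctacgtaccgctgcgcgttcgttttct
Ccnb2: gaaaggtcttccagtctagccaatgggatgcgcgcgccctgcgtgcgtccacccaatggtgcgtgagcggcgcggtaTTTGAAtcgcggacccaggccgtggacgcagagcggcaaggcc
Cdc20: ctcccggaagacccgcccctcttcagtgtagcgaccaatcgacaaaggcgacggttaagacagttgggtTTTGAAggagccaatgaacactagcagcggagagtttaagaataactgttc
Cdk1: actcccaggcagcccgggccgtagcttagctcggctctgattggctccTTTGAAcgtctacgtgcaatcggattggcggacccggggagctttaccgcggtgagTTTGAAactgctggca
Espl1: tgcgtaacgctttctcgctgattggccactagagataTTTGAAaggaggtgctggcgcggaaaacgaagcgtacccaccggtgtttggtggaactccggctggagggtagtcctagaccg
Pttg1: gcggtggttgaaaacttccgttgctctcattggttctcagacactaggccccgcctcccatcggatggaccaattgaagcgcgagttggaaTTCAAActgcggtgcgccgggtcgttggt

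The comparison of OVX with Sham asks what the loss of the ovaries changed in bone. Of the 151 cell cycle genes tested, 14 (9.27%) had an unadjusted p under 0.05, against 16.4% of all genes tested. Of these, 5 were higher in OVX, against 8.16% of all genes, and 9 were lower, against 8.28%. DESeq2 gave 9 higher and 11 lower, with 1534 and 1627 over all genes. By limma on log2(FPKM + 1) 12 were higher and 5 lower, with 1695 and 1200 over all genes. With the quasi-likelihood test of edgeR and Benjamini-Hochberg adjustment over all genes tested, which gives every edgeR adjusted p below, 0 of 151 genes were under 0.05 against 14 unadjusted, and the smallest adjusted p was 0.143. The count was also 0 over all 16874 genes (0%), while DESeq2 called 2 of the 151 and 5.25% of all genes to which it gave an adjusted p. None had an absolute log2FC over 1 with an unadjusted p under 0.05, against 3.11% of all genes, and 1 had without OVX-2. The median log2FC was 0.066, against -0.0062 over all genes. It was 0.013 without Sham-1, 0.15 without Sham-3, 0.019 with the muscle covariate and -0.082 against Sham-3 alone. In 130 of the 151 genes (86.1%), the difference between the group means was smaller than the range among the Sham libraries, as it was in 78.5% of all genes. Without Sham-3, 38 genes were higher with an unadjusted p under 0.05, and without Sham-1, OVX-1 or OVX-3, 3 were. Over all genes, the 1377 higher became 2195 without Sham-3, and 913, 1190 and 889 without Sham-1, OVX-1 and OVX-3. The 9 lower genes became 5 without Sham-2 or OVX-3 and 4 without OVX-2. Over all genes, the 1398 lower became 851, 900 and 1048 without Sham-2, OVX-3 and OVX-2. Against Sham-3 alone, where the median of the cell cycle genes was -0.082, that of all genes was 0.022. With the muscle covariate 4 of the 151 genes were higher and 9 lower, with 1201 and 1149 over all genes. The p of Cdc25a, Gadd45a, Orc3, Pkmyt1, Pttg1 and Ywhag, listed after their values were seen, was then over 0.05.

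Of the 20 S-phase genes, 15% had an unadjusted p under 0.05 in OVX vs. Sham, against 16.4% of all genes. Among S-phase genes, Cdt1, which loads the Mcm helicase, had 104, 125 and 117 CPM in Sham, 86.8, 79.6 and 75.5 CPM in OVX, and 101, 80.9 and 79.2 CPM in OVX-AS-IV-High. Every Sham library lay above every library of the other 2 groups. Its log2FC was -0.52 in OVX vs. Sham (standard error 0.118, unadjusted p under 0.05, edgeR adjusted p = 0.143), and the unadjusted p was under 0.05 in all 17 alternatives. The other S-phase genes with an unadjusted p under 0.05, named after their values were seen, were Orc1 (log2FC -0.38) and Orc3 (0.26), subunits of the origin recognition complex. The p of Orc1 was over 0.05 without Sham-3, OVX-2 or OVX-3, with a log2FC of -0.22, -0.28 and -0.39, and that of Orc3 in 5 of the 9 fits that left out 1 library (without Sham-1, Sham-2, OVX-1, OVX-3 or OVX-AS-IV-High-2, with log2FC from 0.18 to 0.29). The p of Orc3 was also over 0.05 against Sham-3 alone (log2FC 0.18) and with the muscle covariate (0.195), and edgeR then called 0 S-phase genes higher and 3 lower in either fit. Against 1 higher and 2 lower with all libraries, S-phase genes had 4 higher and 1 lower without Sham-3, 0 higher and 4 lower without Sham-1, 0 higher without Sham-2, OVX-1, OVX-3 or OVX-AS-IV-High-2, and 1 lower without OVX-2 or OVX-3. By limma on log2(FPKM + 1) 1 was lower.

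The remaining core S-phase genes gave no p under 0.05 in OVX vs. Sham. The helicase subunits Mcm2, Mcm3, Mcm4, Mcm5, Mcm6 and Mcm7 had log2FC of 0.20, 0.11, 0.14, 0.18, -0.0022 and 0.24. Pcna had 169, 231 and 327 CPM in Sham, 314, 274 and 313 CPM in OVX, and 231, 320 and 346 CPM in OVX-AS-IV-High, so the Sham libraries spanned those of OVX (log2FC 0.31, standard error 0.23, unadjusted p over 0.05, edgeR adjusted p = 0.505). Cdc6, which loads the helicase with Cdt1, had a log2FC of -0.13, and Cdc45, a partner of the active helicase, 0.038. The cyclin E genes Ccne1 and Ccne2, which start S phase, had log2FC of -0.31 (unadjusted p over 0.05, edgeR adjusted p = 0.42) and -0.34 (unadjusted p over 0.05, edgeR adjusted p = 0.539).

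Among mitotic genes, 1 was higher and 2 were lower in OVX with an unadjusted p under 0.05. Together they were 12% of the role, against 16.4% of all genes, and the median log2FC was 0.23. This median was 0.053 without Sham-1, 0.34 without Sham-3, 0.10 with the muscle covariate and -0.071 against Sham-3 alone. DESeq2 gave 3 higher and 3 lower, and limma on log2(FPKM + 1) 4 higher and 1 lower. The higher count was 12 without Sham-3, 3 without OVX-2 or OVX-AS-IV-High-1, and 2 without OVX-AS-IV-High-2 or OVX-AS-IV-High-3. The lower count was 0 without Sham-2 or OVX-2, and 1 without Sham-1, OVX-1, OVX-3 or OVX-AS-IV-High-3. Cdk1, the kinase that drives mitosis, had 65.3, 91.1 and 119 CPM in Sham, 124, 99.3 and 116 CPM in OVX, and 88.9, 101 and 119 CPM in OVX-AS-IV-High. Sham-1 was low and Sham-3 reached the level of OVX, so the groups overlapped (log2FC 0.30, standard error 0.204, unadjusted p over 0.05, edgeR adjusted p = 0.469). Its partners Ccnb1 and Ccnb2 (cyclins B1 and B2) had log2FC of 0.43 (unadjusted p over 0.05, edgeR adjusted p = 0.412) and 0.32 (unadjusted p over 0.05, edgeR adjusted p = 0.474). Bub1b, a kinase-like protein of the spindle checkpoint, had 43.1, 66.4 and 73.6 CPM in Sham and 85.8, 75.8 and 88.9 CPM in OVX, without overlap (log2FC 0.45, unadjusted p over 0.05, edgeR adjusted p = 0.33). The checkpoint genes Mad2l1, Bub1 and Ttk had log2FC of 0.36 (unadjusted p over 0.05, edgeR adjusted p = 0.306), 0.24 and 0.23. Aurkb (the kinase of the chromosomal passenger complex), Cdc20 (the activator of the APC/C), Plk1 (a mitotic kinase) and Espl1 (separase) had log2FC of 0.19, 0.24, -0.018 and -0.066, each with an unadjusted p over 0.05.

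Pttg1 (securin, the inhibitor of separase) had 122, 152 and 120 CPM in Sham, 104, 98.9 and 92.8 CPM in OVX, and 144, 87.2 and 108 CPM in OVX-AS-IV-High. All OVX libraries lay below all Sham libraries, while OVX-AS-IV-High overlapped both (log2FC -0.41 in OVX vs. Sham, standard error 0.174, unadjusted p under 0.05, edgeR adjusted p = 0.281). This p was over 0.05 without Sham-2 (log2FC -0.29), OVX-1 (-0.45), OVX-2 (-0.41), OVX-3 (-0.37) or OVX-AS-IV-High-3 (-0.41), against Sham-3 alone (-0.28) and with the muscle covariate (-0.30). The other lower gene, named after its values were seen, was Pkmyt1 (log2FC -0.36), a kinase that inhibits Cdk1, whose p was over 0.05 in 5 of the 9 fits that left out 1 library (without Sham-1, Sham-2, OVX-2, OVX-3 or OVX-AS-IV-High-3, with log2FC from -0.40 to -0.27), against Sham-3 alone (-0.22) and with the muscle covariate (-0.25). Against Sham-3 alone edgeR called 0 mitotic genes, and with the covariate 1 higher and 1 lower. Mtbp, counted as mitotic although its product also acts at replication origins, had 9.37, 10.1 and 11.1 CPM in Sham and 13.8, 13.2 and 14.1 CPM in OVX. It was higher in OVX without overlap (log2FC 0.42, standard error 0.135, unadjusted p under 0.05, edgeR adjusted p = 0.198), and its p was over 0.05 against Sham-3 alone (log2FC 0.31).

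Outside these roles, Ywhaz had 358, 388 and 404 CPM in Sham, 497, 461 and 480 CPM in OVX, and 469, 508 and 468 CPM in OVX-AS-IV-High. All Sham libraries lay below all others (log2FC 0.32 in OVX vs. Sham, standard error 0.0901, unadjusted p under 0.05, edgeR adjusted p = 0.166), and its p was over 0.05 against Sham-3 alone (log2FC 0.255). Ppp2r5b, a regulatory subunit of the phosphatase PP2A, had 83.6, 118 and 119 CPM in Sham, 82.7, 78.5 and 77.9 CPM in OVX, and 84.9, 76.0 and 82.2 CPM in OVX-AS-IV-High. Sham-1 lay close to the OVX libraries and Sham-2 and Sham-3 far above them (log2FC -0.43, standard error 0.134, unadjusted p under 0.05, edgeR adjusted p = 0.189). Rbl2, the Rb family protein p130 of resting cells, had 67.9, 74.7 and 72.0 CPM in Sham and 88.4, 89.0 and 83.4 CPM in OVX. It was higher in OVX without overlap (log2FC 0.28, standard error 0.089, unadjusted p under 0.05, edgeR adjusted p = 0.193), and its p was over 0.05 against Sham-3 alone (log2FC 0.28). With these 3 counted, Rb-E2F genes had 1 higher, DNA damage checkpoint genes 1 higher and 2 lower, PP2A genes 1 higher and 1 lower, and G1 genes and genes shared by S and G2 each 1 lower. Over all genes, 8.16% were higher and 8.28% lower. In each of these roles a count changed with 1 library left out, and without Sham-3 the DNA damage checkpoint had 4 higher and 3 lower, PP2A 3 higher and 1 lower, Rb-E2F 2 higher, and G1 2 higher and 0 lower. That fit also had 6 higher genes of the APC/C and SCF ligases and 3 of cohesin. CDK inhibitors and genes shared by S and G2 then had 1 higher each, and all 4 of these roles had 0 higher with all libraries. Against Sham-3 alone Rb-E2F had 0 higher and 3 lower, the DNA damage checkpoint and PP2A 0 higher and 1 lower each, genes of the APC/C and SCF ligases 2 lower, CDK inhibitors 1 lower, and G1 genes and genes shared by S and G2 none. With the muscle covariate Rb-E2F had 1 higher and 2 lower, the DNA damage checkpoint 1 higher and 0 lower, CDK inhibitors 1 lower, and genes shared by S and G2 none. Counted over all roles, 30 of the 151 genes had OVX and Sham libraries that did not overlap, against 23.3% of all genes. OVX lay above in 16 of the 151, against 12.7% of all genes, and below in 14, against 10.6% of all genes.

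**Figure D2:**
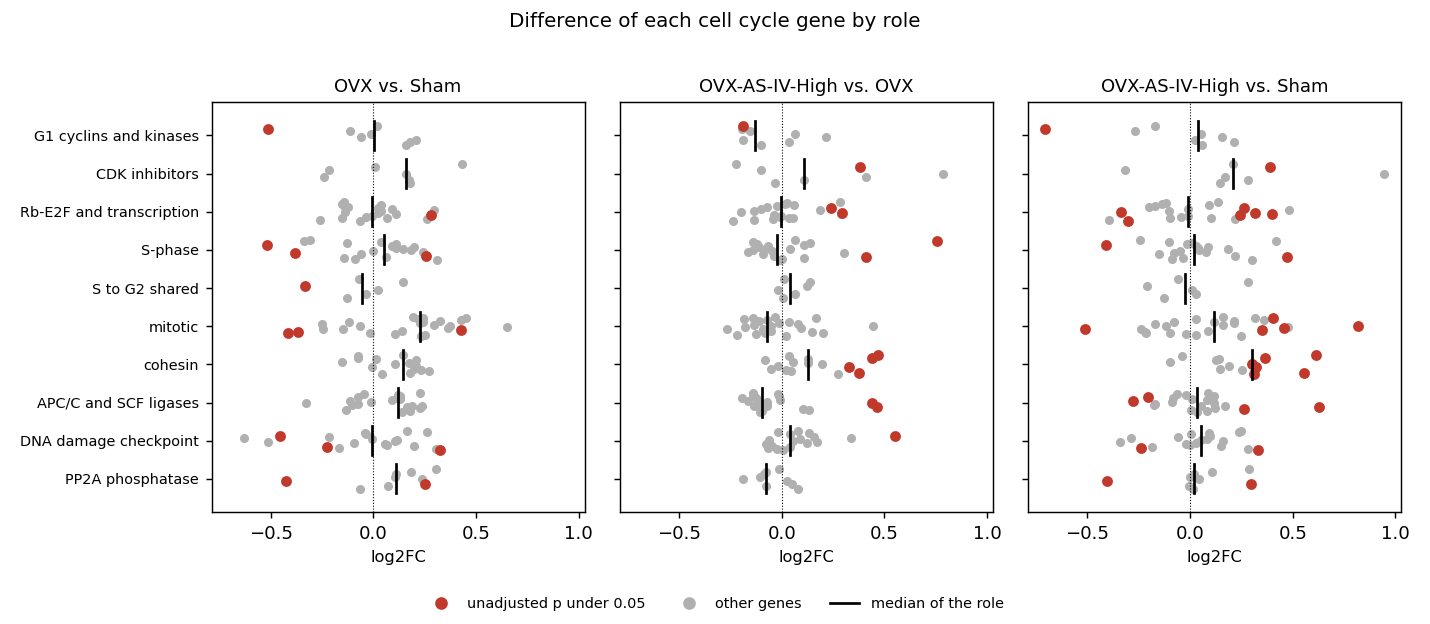
Log2FC (x axis) of each tested cell cycle gene by role (y axis) in the 3 comparisons; red points have an unadjusted p under 0.05, grey points do not, and black lines are the medians of the roles. In OVX-AS-IV-High vs. OVX, 4 of 15 cohesin genes are red and no mitotic gene is, where 6.45% of all genes tested were under that p.

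The comparison of OVX-AS-IV-High with OVX asks what AS-IV changed in ovariectomized rats. Of the 151 genes, 13 (8.61%) had an unadjusted p under 0.05, against 6.45% of all genes tested, with 12 higher, against 4.42% of all genes, and 1 lower, against 2.03%. By limma on log2(FPKM + 1) 10 were higher and 6 lower. Over all genes limma gave 537 higher and 603 lower, where edgeR gave 746 and 343. After Benjamini-Hochberg adjustment 0 were called by edgeR's quasi-likelihood test, against 13 unadjusted, with 0.652 as the smallest adjusted p, which was also the smallest over all genes. No gene of the 16874 was called (0%), and DESeq2 also called 0 of the 151, against 0.254% of all genes to which it gave an adjusted p. None had an absolute log2FC over 1 with an unadjusted p under 0.05, against 0.83% of all genes, and 1 had without OVX-2 or OVX-AS-IV-High-3. The median log2FC was -0.014, against -0.016 over all genes. With 1 library left out it lay between -0.070 (without OVX-AS-IV-High-3) and 0.021 (without OVX-AS-IV-High-1), and it was also above 0 without OVX-1, OVX-3 or OVX-AS-IV-High-2 and without the 3 muscle-rich libraries (0.026). The 12 higher genes became 7 without OVX-2, 5 without OVX-AS-IV-High-1 and 6 without OVX-AS-IV-High-2. Over all genes, the 746 higher became 478, 466 and 452 in these fits. The 1 lower gene was Abl1 (log2FC -0.19), a tyrosine kinase named after its values were seen, whose p was over 0.05 in 7 of the 9 fits that left out 1 library (all but those without Sham-3 or OVX-AS-IV-High-3, log2FC from -0.21 to -0.157), and without the 3 muscle-rich libraries (-0.17). The count of lower genes was 0 in a fit of only these 2 groups with the replicate number as a block, and 1 in that fit with no block. No label gives a pairing, and the numbers were treated as paired only by a correlation rule. The 1 lower gene with no block had the Rb-E2F role, and 0 G1 genes were lower, so Abl1 was not called there either. The count of higher genes was 15 in both fits. With 1 library left out, the lower count was 0 without Sham-1, Sham-2, OVX-1, OVX-3 or OVX-AS-IV-High-2, and 2 without Sham-3. Without the 3 muscle-rich libraries, 13 were higher and 2 lower, with 713 and 514 over all genes. With the muscle covariate 12 were higher and 3 lower, with no call ended and with 1023 and 688 over all genes.

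In all 12 higher genes, OVX-AS-IV-High-3 was the treated library closest to OVX. This was not particular to the cell cycle genes, since it also held for 77.6% of the 746 genes that were higher in the whole table. OVX-AS-IV-High-3 also had the lowest summed muscle level, 998 CPM against 8410 and 3500 CPM in the other treated libraries. Of the 151 genes, 23 had OVX-AS-IV-High and OVX libraries that did not overlap, against 12.7% of all genes. The treated group lay above in 15 of the 151, against 6.38% of all genes, and below in 8, against 6.36% of all genes.

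Cohesin was the role with the most higher genes, 4 of 15 (26.7%) with an unadjusted p under 0.05, against 4.42% of all genes. It is singled out here by these values, and its median log2FC was 0.13. This median was 0.066 without OVX-AS-IV-High-3, 0.077 without OVX-2, 0.077 with the muscle covariate, 0.078 with limma on log2(FPKM + 1) and 0.19 without the 3 muscle-rich libraries. In OVX vs. Sham the cohesin median was 0.15, with 11 positive log2FC and 0 genes under an unadjusted p of 0.05 by edgeR. That median was 0.046 without Sham-1 and 0.25 without Sham-3. Stag2, a core subunit of the ring, had 259, 238 and 250 CPM in OVX, 343, 352 and 275 CPM in OVX-AS-IV-High, and 194, 220 and 247 CPM in Sham. Every treated library lay above every other library (log2FC 0.38 against OVX, standard error 0.126, unadjusted p under 0.05, edgeR adjusted p = 0.652), and its p was over 0.05 without OVX-AS-IV-High-2 (log2FC 0.31). Esco1, which acetylates cohesin, had 50.3, 44.7 and 45.0 CPM in OVX, 64.9, 70.4 and 54.4 CPM in OVX-AS-IV-High, and 55.7, 46.9 and 44.8 CPM in Sham. The treated libraries lay above OVX, but OVX-AS-IV-High-3 lay below Sham-1 (log2FC 0.44 against OVX, standard error 0.124, unadjusted p under 0.05 also in all 17 alternatives, edgeR adjusted p = 0.652).

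Rad21 had 329, 297 and 325 CPM in OVX, 447, 387 and 358 CPM in OVX-AS-IV-High, and 297, 307 and 351 CPM in Sham, with every treated library above all others. Its log2FC was 0.33 against OVX (standard error 0.113, unadjusted p under 0.05, edgeR adjusted p = 0.664), and its p was over 0.05 without OVX-2 (log2FC 0.28) or OVX-AS-IV-High-1 (0.23). Atrx, a chromatin remodeller counted here with cohesin, had 89.6, 83.9 and 93.9 CPM in OVX, 135, 140 and 94.6 CPM in OVX-AS-IV-High, and 82.5, 67.7 and 91.4 CPM in Sham. OVX-AS-IV-High-3 lay barely above OVX-3 (log2FC 0.47, standard error 0.161, unadjusted p under 0.05, edgeR adjusted p = 0.664), and its p was over 0.05 without OVX-2 (log2FC 0.425), OVX-AS-IV-High-1 (0.40) or OVX-AS-IV-High-2 (0.36). Of the 15 cohesin genes, 2 were higher without OVX-2, OVX-AS-IV-High-1 or OVX-AS-IV-High-2, and 6 without the 3 muscle-rich libraries.

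In the S-phase role, 2 of 20 genes (10%) were higher in OVX-AS-IV-High with an unadjusted p under 0.05, against 4.42% of all genes. Ccne2 had 76.5, 44.5 and 69.5 CPM in OVX, 136, 119 and 66.4 CPM in OVX-AS-IV-High, and 71.6, 75.5 and 93.7 CPM in Sham. OVX-AS-IV-High-1 and OVX-AS-IV-High-2 were high, while OVX-AS-IV-High-3 lay within OVX (log2FC 0.76, standard error 0.275, unadjusted p under 0.05, edgeR adjusted p = 0.686). Its p was over 0.05 without OVX-2 (log2FC 0.555), OVX-AS-IV-High-1 (0.55) or OVX-AS-IV-High-2 (0.67), and without the 3 muscle-rich libraries (0.555). Orc4, a subunit of the origin recognition complex named after its values were seen, had 44.2, 43.6 and 46.2 CPM in OVX and 70.5, 62.6 and 44.9 CPM in OVX-AS-IV-High, with the same pattern (log2FC 0.41, unadjusted p under 0.05, edgeR adjusted p = 0.706). Its p was over 0.05 in 4 of the 9 fits that left out 1 library (without OVX-1, OVX-2, OVX-AS-IV-High-1 or OVX-AS-IV-High-2, with log2FC from 0.27 to 0.40) and without the 3 muscle-rich libraries (0.27), which left 0 of 20 S-phase genes higher by edgeR, as did leaving out OVX-2, OVX-AS-IV-High-1 or OVX-AS-IV-High-2. By limma on log2(FPKM + 1) 1 was higher.

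The helicase genes Mcm2 to Mcm7 had log2FC of -0.11, -0.072, 0.041, -0.14, -0.046 and -0.16 against OVX, in the order of their numbers. Of the 25 mitotic genes, edgeR's quasi-likelihood test and DESeq2 each called 0 at an unadjusted p of 0.05, and limma on log2(FPKM + 1) gave 1 lower. A fit of only these 2 groups gave 1 higher, with or without the replicate block, the muscle covariate gave 1 lower, and leaving out the 3 muscle-rich libraries 2 higher and 1 lower. With 1 library left out, 1 was higher without Sham-1 or Sham-3 and 1 was lower without OVX-AS-IV-High-1. Cdk1, Ccnb1, Ccnb2, Cdc20 and Bub1b had log2FC of -0.13, -0.069, -0.11, -0.12 and -0.14. Plk1, Aurkb, Ttk and Espl1 lay between -0.080 and 0.020. Of the other core mitotic genes, Bub1 had a positive log2FC of 0.17, and Mad2l1 had a larger log2FC against Sham after AS-IV than in OVX. The OVX-AS-IV-High libraries lay on both sides of the OVX libraries for Pttg1.

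Beyond these roles, Cdc27, a subunit of the APC/C, had 72.0, 65.0 and 77.9 CPM in OVX, 115, 99.3 and 82.3 CPM in OVX-AS-IV-High, and 67.3, 58.3 and 66.1 CPM in Sham. Every treated library lay above all others (log2FC 0.46 against OVX, standard error 0.132, unadjusted p under 0.05 also in all 17 alternatives, edgeR adjusted p = 0.652). Cdkn1b had 246, 217 and 240 CPM in OVX, 323, 323 and 269 CPM in OVX-AS-IV-High, and 214, 217 and 267 CPM in Sham. The treated libraries lay above all others, OVX-AS-IV-High-3 only just above Sham-3 (log2FC 0.38 against OVX, standard error 0.121, unadjusted p under 0.05 also in all 17 alternatives, edgeR adjusted p = 0.652). The other higher genes were 2 of 21 in the Rb-E2F role, 1 further gene of 21 in the role of APC/C and SCF ligases, and 1 of 19 in the DNA damage checkpoint. Over all genes 4.42% were higher. The checkpoint gene, named after its values were seen, was Gadd45a, which was also lower in OVX vs. Sham with an unadjusted p under 0.05. That p was over 0.05 without Sham-1, Sham-2, OVX-1, OVX-2 or OVX-3, and both comparisons share the OVX libraries. The Rb-E2F count was 0 without OVX-2 or OVX-AS-IV-High-1 and 1 without OVX-1, OVX-3 or OVX-AS-IV-High-2. The further ligase gene was not called without Sham-2, OVX-1, OVX-3, OVX-AS-IV-High-1 or OVX-AS-IV-High-2, and the checkpoint count was 0 without OVX-3 and 2 without OVX-2. The ligase gene was also not called without the 3 muscle-rich libraries, and Rb-E2F then had 2 higher and 1 lower, as with the muscle covariate.

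**Figure D3:**
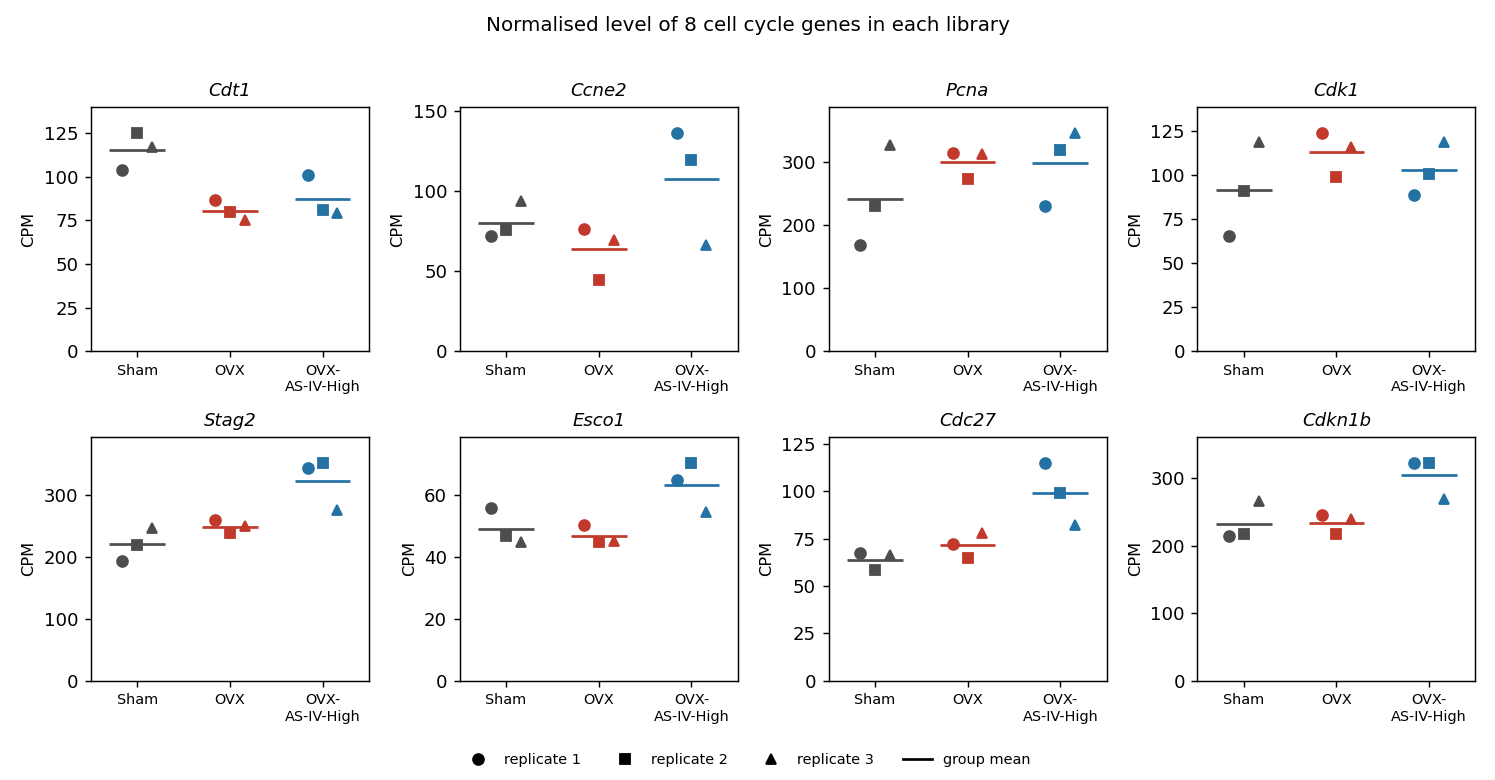
Normalised level (y axes, CPM from 0) of 8 cell cycle genes in each library by group; symbols give the replicate number and lines the group means. For Cdt1 the Sham libraries (104 to 125 CPM) lie above all others, for Stag2, Cdc27 and Cdkn1b the OVX-AS-IV-High libraries do, and for Pcna and Cdk1 the groups overlap.

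OVX-AS-IV-High vs. Sham shares its libraries with both other comparisons, so its values stand beside theirs and are not independent of them. Of the 151 genes, 29 (19.2%) had an unadjusted p under 0.05, against 17.6% of all genes tested, with 20 higher, against 9.17% of all genes, and 9 lower, against 8.48%. After Benjamini-Hochberg adjustment 0 were called by edgeR's quasi-likelihood test, against 29 unadjusted, with 0.101 as the smallest adjusted p. The count over all 16874 genes was also 0 (0%), while DESeq2 called 10 of the 151 and 6.36% of all genes to which it gave an adjusted p. None had an absolute log2FC over 1 with an unadjusted p under 0.05, against 3.15% of all genes (3 had without Sham-3). The groups did not overlap for 28 of the 151 genes, against 19.9% of all genes. The treated group lay above in 15 of the 151, against 9.61% of all genes, and below in 13, against 10.3% of all genes. The median log2FC was 0.055, against -0.013 over all genes. It was -0.0035 without Sham-1, 0.14 without Sham-3, 0.010 without OVX-AS-IV-High-3, -0.012 with the muscle covariate and -0.043 against Sham-3 alone. In this comparison every value against Sham-3 alone also leaves out OVX-AS-IV-High-1. The 20 higher genes became 36 without Sham-3, 10 without Sham-1 and 11 without Sham-2. Over all genes, the 1547 higher became 1993, 1335 and 1049 in these fits. The 9 lower became 5 without OVX-AS-IV-High-2, where the 1431 lower over all genes became 882. After adjustment edgeR called 3 without OVX-AS-IV-High-3, against 0.821% of all genes in that fit. Against Sham-3 alone, where the median of the cell cycle genes was -0.043, that of all genes was 0.0079. With the muscle covariate 16 of the 151 genes were higher and 11 lower, with 1679 and 1290 over all genes. The p of Fbxo5, Mtbp, Rbl1, Rbl2, Wapl and Zbtb17, listed after their values were seen, was then over 0.05.

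Of the 15 cohesin genes, 6 (40%) were higher after treatment with an unadjusted p under 0.05, against 9.17% of all genes. A positive log2FC was found for 13, and the role's median log2FC was 0.30. This median was 0.17 without Sham-1 and 0.15 with the muscle covariate. It was 0.10 for OVX-AS-IV-High-2 and OVX-AS-IV-High-3 against Sham-3 alone. The count was 3 without Sham-1, 2 without Sham-2, 9 without Sham-3, 5 with the muscle covariate and 1 against Sham-3 alone. Pds5a, Rad21 and Wapl were not called without Sham-1, Sham-2 or OVX-AS-IV-High-1, Wapl also not without OVX-AS-IV-High-2 or any 1 of the OVX libraries, and Esco1 was not called without Sham-2, Sham-3 or OVX-AS-IV-High-2. Stag2 had a log2FC of 0.55 (standard error 0.126, unadjusted p under 0.05, edgeR adjusted p = 0.107) and Atrx of 0.61 (standard error 0.162, unadjusted p under 0.05, edgeR adjusted p = 0.125), and the p of both was over 0.05 against Sham-3 alone (log2FC 0.36 and 0.38). Cdc27 had a log2FC of 0.63 (standard error 0.132, unadjusted p under 0.05 also in all 17 alternatives, edgeR adjusted p = 0.101). Of the 25 mitotic genes, 4 were higher and 1 was lower, together 20% of the role against 17.6% of all genes. The higher count was 1 without Sham-1, 2 without Sham-2 or OVX-AS-IV-High-3, and 7 without Sham-3, and the lower count was 3 without OVX-AS-IV-High-1 or OVX-AS-IV-High-3. The lower one, Mad2l1bp, whose product silences the spindle checkpoint, had 20.7, 20.1 and 19.2 CPM in Sham, 18.8, 15.8 and 16.1 CPM in OVX, and 15.8, 12.0 and 14.3 CPM in OVX-AS-IV-High. All Sham libraries lay above all others (log2FC -0.51, standard error 0.132, unadjusted p under 0.05 also in all 17 alternatives, edgeR adjusted p = 0.125).

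Among the 4 higher mitotic genes, Bub1 had a log2FC of 0.41 (unadjusted p under 0.05, edgeR adjusted p = 0.192) and Mad2l1 of 0.46 (unadjusted p under 0.05, edgeR adjusted p = 0.206), with groups that overlapped for both. The p of Bub1 was over 0.05 without Sham-1 (log2FC 0.30) or OVX-AS-IV-High-3 (0.36), and that of Mad2l1 without Sham-1 (0.36), Sham-2 (0.41) or OVX-AS-IV-High-2 (0.35). The p of both was over 0.05 against Sham-3 alone (0.22 and 0.25). Knl1, a kinetochore scaffold named after its values were seen, had 43.0, 68.2 and 95.2 CPM in Sham and 113, 138 and 113 CPM in OVX-AS-IV-High, without overlap (log2FC 0.82, standard error 0.244, unadjusted p under 0.05, edgeR adjusted p = 0.151), and its p was over 0.05 against Sham-3 alone (log2FC 0.41). Mtbp had a log2FC of 0.35 (unadjusted p under 0.05, edgeR adjusted p = 0.231), and its p was over 0.05 without Sham-1 (log2FC 0.30), Sham-2 (0.354) or OVX-AS-IV-High-3 (0.26), against Sham-3 alone (0.27) and with the muscle covariate (0.27). Against Sham-3 alone edgeR called 0 mitotic genes higher and 1 lower. In the S-phase role 1 gene was higher (Orc4, log2FC 0.47) and 1 lower (Cdt1, log2FC -0.41, standard error 0.118, unadjusted p under 0.05, edgeR adjusted p = 0.146); the p of Orc4 was over 0.05 without OVX-AS-IV-High-1 (log2FC 0.33) or against Sham-3 alone (0.37), a fit that left 0 S-phase genes higher and 2 lower by edgeR. With all libraries, 10% of the S-phase genes were called, against 17.6% of all genes. In this role 2 were higher without Sham-3 or OVX-AS-IV-High-3, and 2 lower without Sham-1. In the remaining roles, 4 Rb-E2F genes were higher and 2 lower, 2 genes of the APC/C and SCF ligases higher and 2 lower, 1 DNA damage checkpoint gene and 1 PP2A gene higher and 1 of each lower, 1 CDK inhibitor higher and 1 G1 gene lower. Over all genes, 9.17% were higher and 8.48% lower. In each of these roles a count changed with 1 library left out, and the higher Rb-E2F count was 1 without Sham-1 and 2 without Sham-2 or any 1 of the treated libraries. With the muscle covariate Rb-E2F had 2 higher and 2 lower, the ligases 1 higher and 2 lower, the DNA damage checkpoint 2 higher and 1 lower, CDK inhibitors 1 higher and 1 lower, and G1 genes 2 lower. Against Sham-3 alone Rb-E2F had 0 higher and 2 lower, the ligases 1 of each, the DNA damage checkpoint 1 higher and 0 lower, PP2A 0 higher and 1 lower, and CDK inhibitors and G1 genes none.

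Scaling of a library cancels in the mean S-phase level minus the mean mitotic level. This difference was 0.509, 0.426 and 0.411 log2 units for Sham, 0.304, 0.305 and 0.253 log2 units for OVX, and 0.434, 0.435 and 0.238 log2 units for OVX-AS-IV-High. All OVX libraries lay below all Sham libraries, OVX-AS-IV-High-1 and OVX-AS-IV-High-2 lay within Sham, and OVX-AS-IV-High-3 lay below OVX. The group means were 0.449 ± 0.0529, 0.288 ± 0.0295 and 0.369 ± 0.113 (SD, n = 3 each). OVX minus Sham was -0.161, OVX-AS-IV-High minus OVX 0.0813, and OVX-AS-IV-High minus Sham -0.0801, against a pooled SD within groups of 0.074. The second became 0.147 and the third -0.0149 without OVX-AS-IV-High-3. The second was 0.0489 without OVX-AS-IV-High-1 and 0.0484 without OVX-AS-IV-High-2, and the third -0.0499 without Sham-1. Without the 3 muscle-rich libraries the differences were -0.124, 0.0489 and -0.0748, the first and the third against Sham-3 alone, and with medians over genes in place of means -0.479, 0.143 and -0.336. No p is given for a score over chosen genes, and 3 libraries against 3 cannot reach an exact permutation p below 0.1.

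The same difference over lists outside the pathway, 40 S-phase genes led by Slbp and 45 mitotic genes led by Hmgb2, was -0.584, -0.696 and -0.689 log2 units for Sham, -0.711, -0.662 and -0.700 log2 units for OVX, and -0.706, -0.699 and -0.760 log2 units for OVX-AS-IV-High. OVX minus Sham was then -0.0349, and the OVX and Sham libraries overlapped. It was 0.00144 without Sham-1, the Sham library with the highest value, -0.0549 without Sham-2 and -0.00232 against Sham-3 alone. OVX-AS-IV-High minus OVX was -0.0306, the opposite sign from the pathway genes, and became -0.0115 without OVX-AS-IV-High-3 and -0.0159 without OVX-2. OVX-AS-IV-High minus Sham was -0.0654, against -0.0801 for the pathway genes, and became -0.0291 without Sham-1 and -0.0407 against Sham-3 alone. With any 1 library left out, the mean of OVX-AS-IV-High was above that of OVX for the pathway genes and below it for the outside lists.

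**Figure D4:**
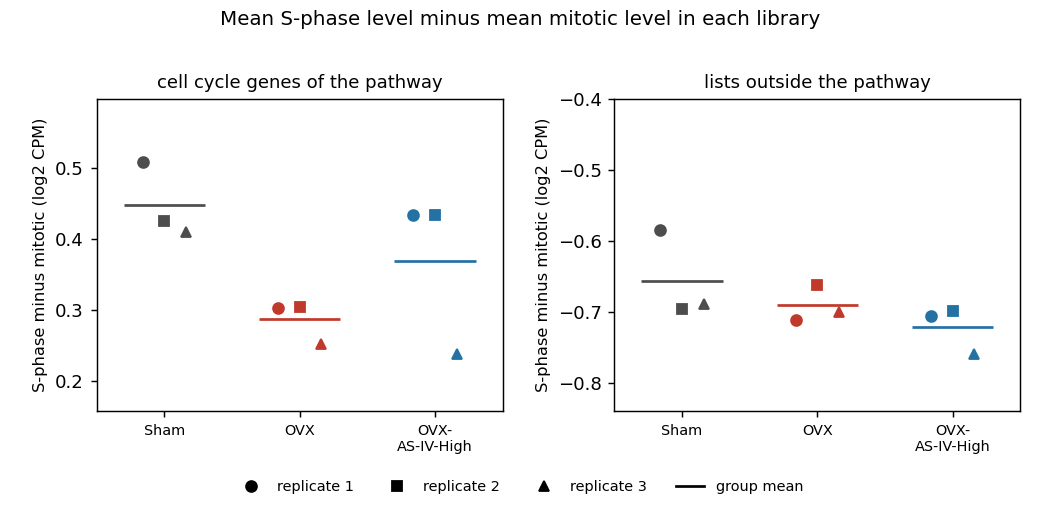
Mean S-phase level minus mean mitotic level (y axes, log2 CPM, the same height in both plots) in each library, for the pathway's genes and for lists outside the pathway; symbols give the replicate number and lines the group means. The OVX libraries lie below Sham for the pathway's genes (0.253 to 0.305 against 0.411 to 0.509) and overlap Sham for the outside lists.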

How the data were processed

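The deposited table held whole-number counts and FPKM for each gene and library; the authors cleaned reads, aligned them with Tophat and Bowtie to the rat genome mRatBN7.2 and quantified genes with eXpress. How estimates became whole counts is not given in the sources used here. Members and lists were chosen with earlier results of these data known. Counts were tested with edgeR 4.0.16 (TMM, filterByExpr with a minimum count of 10, quasi-likelihood test, 9 libraries in 1 fit, Benjamini-Hochberg adjustment over 16874 genes) in R 4.3.3. Levels are CPM, or log2 CPM with a prior count of 2. Named were a fixed core of replication and mitosis genes, the 5 genes with the smallest p among those under 0.05 in each comparison, any past an absolute log2FC of 1, and the most abundant gene of each role. Roles of genes absent from the list were added from name and function, and Mtbp kept its mitotic role. Near-identical copies (Hdac1l and Hdac1, LOC100362453 and Ppp2ca) are uncertain. Ccnb3, LOC103690862, Sfnl1, Smc1b and Wee2 fell below the filter.

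Alternatives were DESeq2 1.42.0, RLE size factors, no filter, limma 3.58.1 on log2(FPKM + 1), only the groups compared, these with a replicate block, a skeletal muscle covariate and leaving out each library. Same-numbered OVX and OVX-AS-IV-High libraries deviated together from their group means (correlations across genes 0.31, 0.158 and 0.13). The numbers were therefore treated as pairing these groups, by the rule that each correlation be over 0.1. Nothing in the labels gives a pairing or says what same-numbered libraries share. Scripts were tested on simulated data. Python 3.11.15, pandas 2.3.3 and matplotlib 3.10.9 were used.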

Additional observations from a re-analysis of the deposited data

How the results depend on the processing

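In OVX vs. Sham, 5 genes were higher and 9 lower with an unadjusted p under 0.05. The higher count was 9 with DESeq2, 12 with limma on log2(FPKM + 1) and 0 without the 3 muscle-rich libraries, which leaves Sham-3 alone in Sham, and the lower count was 5 with limma. DESeq2 called 2 after adjustment. Leaving out 1 library at a time gave 3 to 38 higher, 4 to 9 lower and 0 to 1 past an absolute log2FC of 1 as well. For OVX-AS-IV-High vs. OVX, a lower count of 1 became 0 with RLE size factors, 0 without a filter, 6 with limma, 3 with the muscle covariate and 2 without the muscle-rich libraries; leaving out 1 library gave 5 to 16 higher, 0 to 2 lower and 0 to 1 past an absolute log2FC of 1. In OVX-AS-IV-High vs. Sham, DESeq2 called 10 after adjustment, and 3 were higher without the muscle-rich libraries (Sham-3 alone); leaving out 1 library gave 10 to 36 higher, 5 to 11 lower, 0 to 3 past an absolute log2FC of 1 and 0 to 3 after adjustment by edgeR. The cause of these differences was not tested.

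The replicate block was fitted to only the 2 groups compared. For OVX-AS-IV-High vs. OVX (treated as paired) it gave 15 higher and 0 lower, and the same fit with no block 15 and 1. Sham numbers did not meet the correlation rule, although some of their correlations were larger (0.2, -0.161 and 0.253 with OVX, 0.314, -0.158 and 0.435 with OVX-AS-IV-High). In OVX-AS-IV-High vs. Sham the replicate block gave 32 higher, against 17 with no block. Against the same fits with no block, it moved no other count over all 151 genes by more than 1.5 times. Among S-phase, mitotic and cohesin genes, it took the higher mitotic genes from 1 to 4 and the higher S-phase genes from 1 to 0 in OVX vs. Sham, and from 3 to 7, 1 to 3 and 5 to 8 (cohesin) in OVX-AS-IV-High vs. Sham.

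The S-phase minus mitotic difference for OVX vs. Sham was -0.0349 with the outside lists and -0.479 with medians, for OVX-AS-IV-High vs. OVX -0.0306 with the outside lists and 0.143 with medians, and for OVX-AS-IV-High vs. Sham -0.336 with medians. Leaving out 1 library gave -0.18 to -0.131, 0.0484 to 0.147 and -0.113 to -0.0149. With Mtbp and Ticrr counted as S-phase, chosen after seeing the data, it was -0.135, 0.0775 and -0.0577. Each group had 3 libraries, and the common biological coefficient of variation was 0.256.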

Other observations

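Among the 40 S-phase and 45 mitotic genes outside the pathway, 5.00% and 6.67% had an unadjusted p under 0.05 in OVX vs. Sham, against 16.4% of all genes tested. The shares were 7.50% and 4.44% against 6.45% for OVX-AS-IV-High and OVX, and 10.0% and 8.89% against 17.6% for OVX-AS-IV-High and Sham. In OVX vs. Sham, 2 S-phase genes were higher, and 2 mitotic genes were higher and 1 lower. The latter was Aurka (a spindle pole kinase, log2FC -0.36), and Gas2l3 (0.43) and Hmgb2 (0.34) were the higher ones. In OVX-AS-IV-High vs. OVX, 3 S-phase and 2 mitotic genes were higher, among them Hells (a chromatin remodeller, log2FC 0.58) and Ect2 (a regulator of cytokinesis, 0.53). In OVX-AS-IV-High vs. Sham, 3 S-phase genes were higher and 1 lower, and 4 mitotic genes were higher, among them Usp1 (a deubiquitinase of DNA repair, 0.57), Gas2l3 (0.55) and Smc4 (a condensin subunit, 0.48).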
